A study of Mus musculus with 7 samples.

Results

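Gnaq, Plcb3, Plcb4, Itpr1, Homer3 and Car8 are genes through which Purkinje cells, the output neurons of the cerebellar cortex, turn glutamate into calcium signals. Rora encodes a nuclear receptor that Purkinje cells need to mature. These 7 genes were taken by symbol from the 55450 genes of the deposited tables and followed in the cerebella of L3mbtl3 KO/+ and WT pups. The comparison set 4 L3mbtl3 KO/+ libraries (labelled KO/+, that is, with a knockout allele and a wild-type allele) against 3 WT libraries. Both genotypes were C57BL/6 pups at postnatal day 15 and are given no other allele or treatment in the labels. Whole cerebella were homogenised, so RNA of all cerebellar cell types was sequenced together as polyadenylated RNA. The labels name neither the litters of the pups nor the part of L3mbtl3 that was disrupted, and p-values measure the spread between these 7 libraries.

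In Purkinje cells, glutamate released by parallel fibres activates the metabotropic receptor mGluR1. The receptor couples through the Gq family to phospholipase C beta, which cleaves a membrane lipid into diacylglycerol and inositol trisphosphate (IP3), and IP3 opens calcium channels of the endoplasmic reticulum. Homer proteins tie the receptor to those channels at the dendritic spine. The pathway is known for long-term depression of the parallel fibre synapse, and loss of its components gives ataxia in mice.

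The libraries held between 29248360 and 43761792 estimated read counts. Across all genes, 0 of 16813 tested were called between KO/+ and WT (0%, edgeR quasi-likelihood test, Benjamini-Hochberg adjusted p under 0.05), and 530 (3.15%) had an unadjusted p under 0.05. L3mbtl3 itself had 19.7, 17.4, 22.3 and 23.0 normalised read counts (CPM, counts scaled to library size) in KO/+ 1 to 4 and 22.6, 26.8 and 23.2 CPM in WT 1 to 3, for a log2 fold change of -0.23 ± 0.12 (SE, edgeR adjusted p = 0.957), so the genotypes overlapped at the gene level. All 10 listed Purkinje markers were detected in every library, and their summed level was 1842 to 2585 CPM in KO/+ and 1796 to 2155 CPM in WT. Library WT 3 stood apart in the interneuron marker Sst, at 31.0 CPM, against 1.5 to 3.4 CPM in KO/+ and 2.7 and 2.9 CPM in the other WT libraries. What sets WT 3 apart, and its part in the values of the 7 genes, was not tested, and the members are given with and without it where it moved them most.

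None of the 7 genes differed between KO/+ and WT cerebella beyond the spread between libraries. All 7 passed the filter on low counts, 0 of 7 were called and 0 of 7 had an unadjusted p under 0.05, beside the 0% and 3.15% of all genes. In each of the 7 the KO/+ and WT libraries overlapped, where 3.96% of all tested genes showed no overlap. Log2 fold changes, KO/+ over WT, ran from -0.18 for Itpr1 to 0.24 for Car8, with 4 positive and 3 negative and a median of 0.09. Over all tested genes 48.8% were positive and the median was -0.005. In bulk tissue, fewer Purkinje cells and less RNA per cell cannot be told apart.

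**Figure D1:**
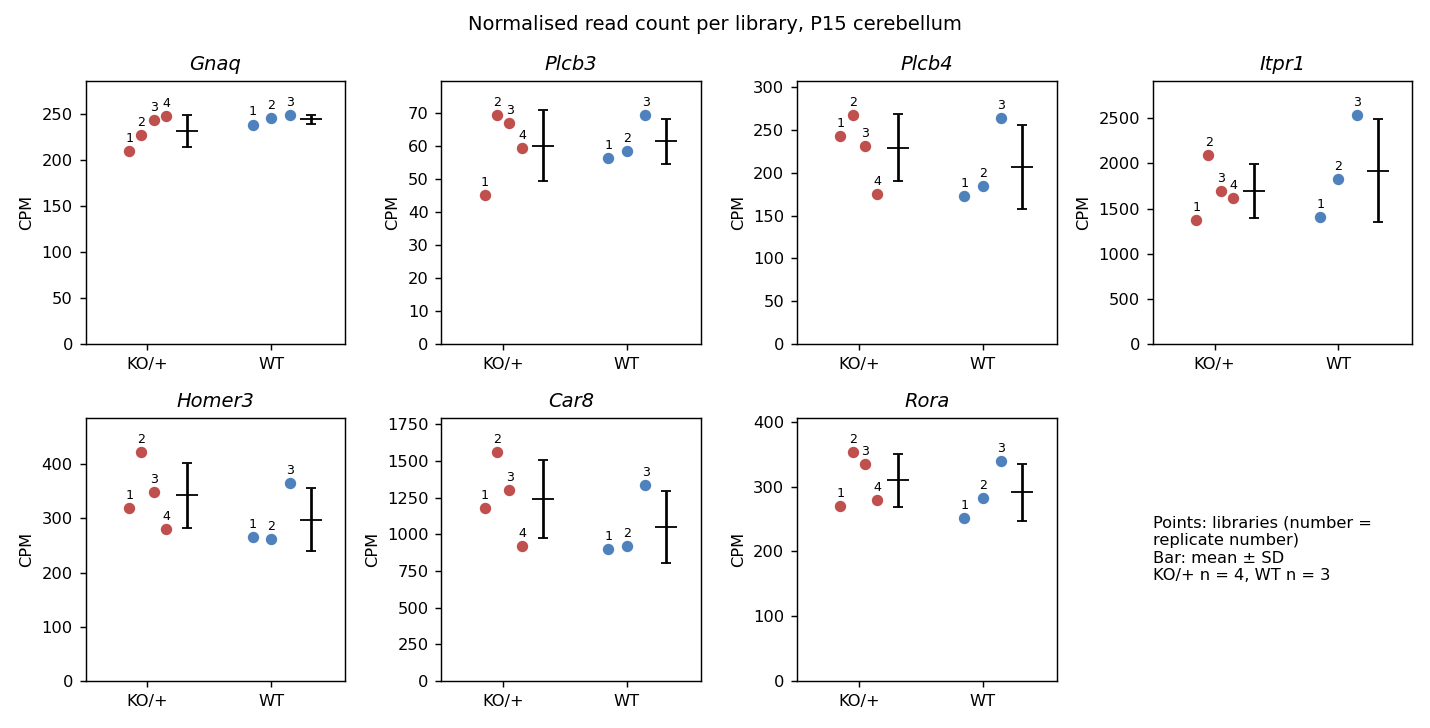
Normalised read count (CPM, vertical axes from 0) of the 7 genes in the 4 KO/+ libraries (red, left) and the 3 WT libraries (blue, right), numbered by replicate, with the mean and SD beside each group. The genotypes overlap in every panel. WT 3 is the highest WT library for each gene, for example 2530 CPM for Itpr1 against 1406 and 1823 CPM in WT 1 and WT 2.

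Gnaq encodes the alpha subunit of Gq, the G protein that links mGluR1 to phospholipase C (chr19:16132831-16387463, + strand, GRCm38). It had 209, 226, 243 and 247 CPM in KO/+ 1 to 4 and 238, 245 and 248 CPM in WT 1 to 3. KO/+ 1 and KO/+ 2 lay below the WT range and the other KO/+ libraries within it. Gnaq had a log2 fold change of -0.07 ± 0.08 (SE, 95% interval -0.27 to 0.12, unadjusted p = 0.401, edgeR adjusted p = 0.957). Gnaq was the steadiest of the 7, with a coefficient of variation of 6.04% over all libraries, against 13.2% to 22.9% for the others. Its transcript Gnaq-201 carried 99.5% to 100% of the gene's transcripts in KO/+ and 99.2% to 99.6% in WT.

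Plcb3 and Plcb4 encode the phospholipase C beta enzymes that act below Gq in Purkinje cells. Their proteins are known to mark complementary stripes of the cerebellar cortex, PLCβ3 in zebrin-positive and PLCβ4 in zebrin-negative Purkinje cells. Plcb3 (chr19:6952325-6976470, − strand) had 45.0, 69.2, 66.7 and 59.4 CPM in KO/+ 1 to 4 and 56.4, 58.5 and 69.2 CPM in WT 1 to 3. KO/+ 1 was the lowest of all 7 libraries and the other KO/+ values fell within the WT range. It had a log2 fold change of -0.03 ± 0.15 (SE, 95% interval -0.38 to 0.32, unadjusted p = 0.841, edgeR adjusted p = 0.982), and it was 0.08 without KO/+ 1 and 0.06 without WT 3.

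Plcb4 (chr2:135659011-136014593, + strand) had 243, 267, 231 and 175 CPM in KO/+ 1 to 4 and 173, 184 and 264 CPM in WT 1 to 3. KO/+ 4 lay with WT 1 and WT 2 at the low end, and WT 3 lay with the other KO/+ libraries at the high end. Plcb4 had a log2 fold change of 0.15 ± 0.18 (SE, 95% interval -0.28 to 0.57, unadjusted p = 0.446, edgeR adjusted p = 0.957). Leaving out WT 3 moved it to 0.36, and leaving out WT 1 moved it to 0.03.

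The balance of the 2 enzymes was taken as the log2 ratio of Plcb3 to Plcb4 in TPM, a unit that corrects for transcript length. It was -2.32, -1.93, -1.76 and -1.53 in KO/+ 1 to 4 and -1.51, -1.68 and -1.88 in WT 1 to 3, so Plcb4 was the more abundant transcript in every library. The means were -1.89 ± 0.33 in KO/+ (SD, n = 4) and -1.69 ± 0.18 in WT (SD, n = 3). The difference of -0.20 was within the spread (two-sided exact permutation p = 0.4, where the smallest p these libraries allow is 0.0571), and it was -0.05 without KO/+ 1. Genes known from zebrin-positive and zebrin-negative Purkinje cells gave no calls either. They were measured in whole cerebellum, so their levels need not come from Purkinje cells alone. Of the 4 zebrin-positive genes (Aldoc, Slc1a6, Kctd12 and Gabbr2), 2 had positive log2 fold changes, with a median of 0.01, and without WT 3, 3 of 4 were positive, with a median of 0.14 and Aldoc at 0.29. Of the 2 listed zebrin-negative genes, Ebf2 stood at -0.46 ± 0.21 and Nefh at -0.51 ± 0.29 (SE), and neither was called by edgeR. Without WT 3, Ebf2 stood at -0.24 and Nefh at -0.14.

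Transcript models of Plcb4 differed at the 3′ end of the coding sequence, where the enzyme's C-terminal variants arise. Plcb4-213, a partial model of 2307 bases, made up 45.9%, 45.2%, 44.8% and 48.8% of the gene's transcripts in KO/+ 1 to 4 and 46.5%, 47.3% and 42.0% in WT 1 to 3. Plcb4-202, a full-length model of 1175 codons, made up 39.7%, 32.5%, 31.4% and 37.2% in KO/+ 1 to 4 and 40.4%, 34.1% and 37.5% in WT 1 to 3. The genotypes overlapped for both. Plcb4-201, with the same coding sequence as Plcb4-202, had a mean share of 12.1% over the 7 libraries. These shares are scaled by length, which weights short models up. By counts, Plcb4-213 averaged 66.6 CPM in KO/+ and 57.6 CPM in WT, against 126 and 119 CPM for Plcb4-202. The shares thus do not show that the form with Plcb4-213's end was the main one. Plcb4-213 carries an exon of 37 bases that Plcb4-202 lacks (chr2:136010936-136010972), after which its coding sequence ends 20 bases further along the chromosome. The exon is shown in capitals between 30 coding bases of the exons on either side, read 5′ to 3′ from GENCODE M21 (GRCm38).
Plcb4-213 extra exon: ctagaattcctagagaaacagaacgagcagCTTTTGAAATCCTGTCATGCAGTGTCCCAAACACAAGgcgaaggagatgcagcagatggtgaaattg
For Plcb3, the full-length Plcb3-201 made up 60.3% to 64.7% in KO/+ and 63.1% to 66.6% in WT. The shorter Plcb3-210 made up 24.3% to 33.6% in KO/+ and 26.0% to 29.1% in WT. By counts, Plcb3-210 averaged 9.4 CPM in KO/+ and 9.0 CPM in WT, against 49.0 and 50.5 CPM for Plcb3-201.

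Itpr1 encodes the type 1 IP3 receptor, the main IP3-gated calcium channel of Purkinje cells (chr6:108213096-108551109, + strand). It had 1368, 2092, 1693 and 1613 CPM in KO/+ 1 to 4 and 1406, 1823 and 2530 CPM in WT 1 to 3. The highest value was that of WT 3, and KO/+ 1 and WT 1 shared the low end. It had a log2 fold change of -0.18 ± 0.21 (SE, 95% interval -0.67 to 0.31, unadjusted p = 0.419, edgeR adjusted p = 0.957). This rested on WT 3: it was 0.07 without WT 3 and -0.37 without WT 1. KO/+ 1, the lowest of all 7 libraries for Itpr1, Plcb3 and Gnaq, was also the lowest in the median level of the 1856 genes with transcripts of 5 kb or more. That median deviation from the 7-library mean was -0.15, -0.07, 0.02 and 0.04 in KO/+ 1 to 4 and 0.02, 0.07 and 0.07 in WT 1 to 3 (log2 CPM), and its part in the gene values was not tested. Mean transcript length was 7113 bases for Itpr1, 5628 for Gnaq and 3380 for Plcb3, so Plcb3 falls short of that class. Rora, the longest of the 7 at 9503 bases, was lowest in WT 1, at 251 CPM, against 271 CPM in KO/+ 1.

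Splicing of Itpr1 is known to be regulated at 2 sites, called S1, in the ligand-binding region, and S2, in the coupling region, where the long form is typical of neurons. Both full-length coding models of the annotation hold S1 and S2. Itpr1-205 made up 42.1%, 39.2%, 39.2% and 41.6% of the gene's transcripts in KO/+ 1 to 4 and 42.0%, 42.5% and 37.9% in WT 1 to 3. Itpr1-201 made up 27.7%, 28.6%, 30.2% and 31.3% in KO/+ 1 to 4 and 28.7%, 30.2% and 29.3% in WT 1 to 3. They differ by 1 codon at the start of the last S2 exon (chr6:108432646-108432648), shown in capitals within the joined S2 exons, 40 to 42 of Itpr1-201, which code for 40 amino acids there.
Itpr1-201 S2 exons: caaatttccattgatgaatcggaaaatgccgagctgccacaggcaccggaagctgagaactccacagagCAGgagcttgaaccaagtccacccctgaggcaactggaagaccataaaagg
Itpr1-205 S2 exons: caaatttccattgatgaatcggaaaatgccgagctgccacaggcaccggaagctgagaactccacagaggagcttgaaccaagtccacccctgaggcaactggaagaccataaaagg
The S1 exon of 45 bases (exon 12, chr6:108365299-108365343) is missing from Itpr1-208, a partial model of 647 bases that joins the exons on either side. In the first sequence capitals mark the S1 exon, and in the second the base on each side of the junction.
Itpr1-201 around the S1 exon: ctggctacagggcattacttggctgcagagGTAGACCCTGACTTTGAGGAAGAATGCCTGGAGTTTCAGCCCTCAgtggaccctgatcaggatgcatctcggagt
Itpr1-208 junction: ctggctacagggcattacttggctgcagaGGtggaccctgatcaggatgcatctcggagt
Itpr1-208 was given 22.3%, 24.8%, 23.2% and 19.5% of the gene's transcripts in KO/+ 1 to 4 and 21.7%, 18.9% and 24.5% in WT 1 to 3, again overlapping. The isoform percentage is scaled by length, and this short model held between 0.79% and 1.14% of the gene's counts. The annotation holds no full-length model without the S1 exon, so full-length transcripts that skip it could not be given a share. These percentages therefore do not measure how often S1 was skipped.

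Homer3 encodes the Homer scaffold that is most abundant in Purkinje cells, where it binds mGluR1 and the IP3 receptor (chr8:70282827-70294361, + strand). It had 319, 423, 348 and 281 CPM in KO/+ 1 to 4 and 266, 262 and 366 CPM in WT 1 to 3. All 4 KO/+ libraries lay above WT 1 and WT 2, and WT 3 lay among the KO/+ values. Homer3 had a log2 fold change of 0.20 ± 0.17 (SE, 95% interval -0.19 to 0.59, unadjusted p = 0.270, edgeR adjusted p = 0.957). Without WT 3 it was 0.37 (unadjusted p = 0.0409, edgeR adjusted p = 0.598), and without KO/+ 2 it was 0.09. A pair of transcripts with the same coding sequence made up most of the gene: Homer3-203, and Homer3-201, whose start lies 2.25 kb further in. Homer3-201 made up 14.4%, 16.4%, 14.5% and 6.68% in KO/+ 1 to 4 and 19.4%, 20.1% and 5.20% in WT 1 to 3. Its share was low in KO/+ 4 and WT 3, one library of each genotype.

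Car8 encodes carbonic anhydrase-related protein 8, which lacks carbonic anhydrase activity and binds the type 1 IP3 receptor, lowering its affinity for IP3 (chr4:8143362-8239041, − strand). It had 1181, 1561, 1299 and 922 CPM in KO/+ 1 to 4 and 903, 919 and 1334 CPM in WT 1 to 3. KO/+ 4 stood level with WT 1 and WT 2, and the other KO/+ libraries stood with WT 3. The log2 fold change of 0.24 ± 0.21 was the highest of the 7 (SE, 95% interval -0.24 to 0.71, unadjusted p = 0.281, edgeR adjusted p = 0.957). It was 0.44 without WT 3 (unadjusted p = 0.0462, edgeR adjusted p = 0.598) and 0.11 without KO/+ 2. Car8 has 1 annotated transcript.

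Rora encodes the nuclear receptor RORα, whose loss in the staggerer mouse stops Purkinje cell maturation (chr9:68653786-69388246, + strand). It had 271, 353, 335 and 279 CPM in KO/+ 1 to 4 and 251, 282 and 339 CPM in WT 1 to 3. KO/+ 1 and KO/+ 4 fell within the WT range, as did KO/+ 3, and KO/+ 2 lay above it. Rora had a log2 fold change of 0.09 ± 0.14 (SE, 95% interval -0.23 to 0.41, unadjusted p = 0.537, edgeR adjusted p = 0.957), and it was -0.01 without WT 1 and 0.21 without WT 3. Of 4 genes known to depend on Rora in mouse Purkinje cells (Pcp2, Pcp4, Slc1a6 and Shh), 2 had positive log2 fold changes and none was called, with a range of -0.09 to 0.18.

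The mouse gene makes RORα1 and RORα4 from separate promoters, which here start 635.9 kb apart and give different first coding bases. These starts are shown with the bases particular to each in capitals, followed by the first 30 coding bases that they share.
Rora-201 coding start: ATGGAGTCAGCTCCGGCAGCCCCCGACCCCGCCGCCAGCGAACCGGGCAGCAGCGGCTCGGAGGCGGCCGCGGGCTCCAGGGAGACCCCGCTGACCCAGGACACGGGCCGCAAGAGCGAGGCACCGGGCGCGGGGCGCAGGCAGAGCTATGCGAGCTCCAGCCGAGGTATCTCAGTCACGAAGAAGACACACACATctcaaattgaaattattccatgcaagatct
Rora-202 coding start: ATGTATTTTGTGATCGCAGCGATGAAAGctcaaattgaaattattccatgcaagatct
Rora-201 (RORα1, 523 codons) made up 82.8%, 83.5%, 82.3% and 84.5% of the gene's transcripts in KO/+ 1 to 4 and 85.2%, 85.9% and 84.1% in WT 1 to 3. Rora-202 (RORα4, 467 codons) made up 12.2%, 13.3%, 13.1% and 11.3% in KO/+ 1 to 4 and 10.3%, 8.81% and 12.7% in WT 1 to 3. Rora-201 had the larger share in all 7 libraries. By counts, Rora-202 averaged 9.6 CPM in KO/+ and 7.6 CPM in WT, against 300 and 283 CPM for Rora-201. The models differ in length (2591 and 10878 bases) and in their ends (chr9:69379809 and chr9:69388246). Reads past the end of Rora-202 could be given only to Rora-201, so the shares also depend on the models. Mean shares of Rora-201 were 83.3% ± 0.94 in KO/+ (SD, n = 4) and 85.1% ± 0.91 in WT (SD, n = 3), with 1 KO/+ library inside the WT range. This difference was not called (limma-trend on the share ratio, unadjusted p = 0.210, adjusted p = 1).

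**Figure D2:**
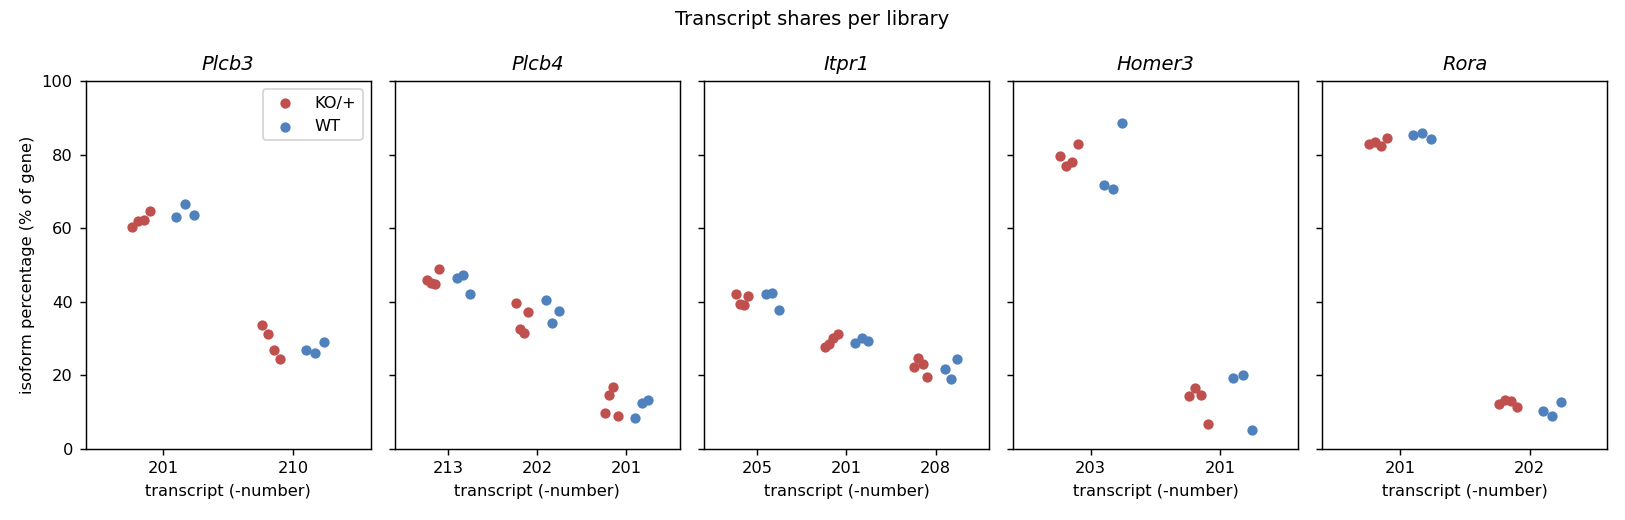
Isoform percentage (percent of the gene's transcripts, vertical axis 0 to 100) of the transcripts with a mean share of at least 5% and under 99%, by library, KO/+ in red on the left and WT in blue on the right of each transcript. KO/+ and WT overlap for every transcript plotted, and Homer3-203 and Homer3-201 show the widest spread within WT, with WT 3 at 88.65% and 5.20%.

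No transcript of the 7 genes was called between KO/+ and WT, beside 0 of 44375 transcripts tested (0%; 2.71% had an unadjusted p under 0.05). Transcript usage was tested in the 5 members with several expressed transcripts, and none was called (edgeR, unadjusted p from 0.914 to 0.997, adjusted p = 1). Over all genes that test called 27 of 10105 (0.267%), and 2.04% had an unadjusted p under 0.05. It also called genes in simulated data without any change of usage, so its calls are not read further.

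Per unit of transcript length the 7 genes kept nearly the same order in every library. Mean levels over the 7 libraries were 493 TPM for Car8, 397 TPM for Itpr1, 246 TPM for Homer3, 105 TPM for Plcb4, 67.2 TPM for Gnaq, 49.3 TPM for Rora and 29.99 TPM for Plcb3. Each gene exceeded the next in 7 of 7 libraries, except that Car8 exceeded Itpr1 in 6 of 7. In WT 3 Itpr1 reached 589 TPM and Car8 576 TPM. Car8 and Itpr1 were thus the only neighbours whose order changed, with ratios of 0.98 to 1.66. The next closest were Gnaq and Rora, with ratios of 1.11 to 1.67. Gene TPM adds short partial models to full-length ones. Itpr1-208 was given 24.5% of the Itpr1 transcripts in WT 3, and Plcb4-213 42.0% to 48.8% of those of Plcb4 over the 7 libraries. Whether the places of Itpr1 and Plcb4 in the order, and the change in WT 3, rest on these models was not tested.

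Across libraries, irrespective of genotype, Homer3, Car8 and Plcb4 had the most similar profiles of the 7. The measure was the root mean square difference of log2 CPM after each gene was centred on its mean over the 7 libraries, which was 0.07 for Homer3 and Car8, 0.09 for Plcb4 and Car8 and 0.10 for Plcb4 and Homer3. All were high in KO/+ 2, KO/+ 3 and WT 3 and low in KO/+ 4, WT 1 and WT 2. Gnaq and Car8 were farthest apart, at 0.33. Set against its own mean, Itpr1 was lower than Homer3 in KO/+ 1 and higher in WT 2 and WT 3, the libraries where the pair differed most. Rora was nearest to Homer3, at 0.12, and then to Plcb3, at 0.13.

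**Figure D3:**
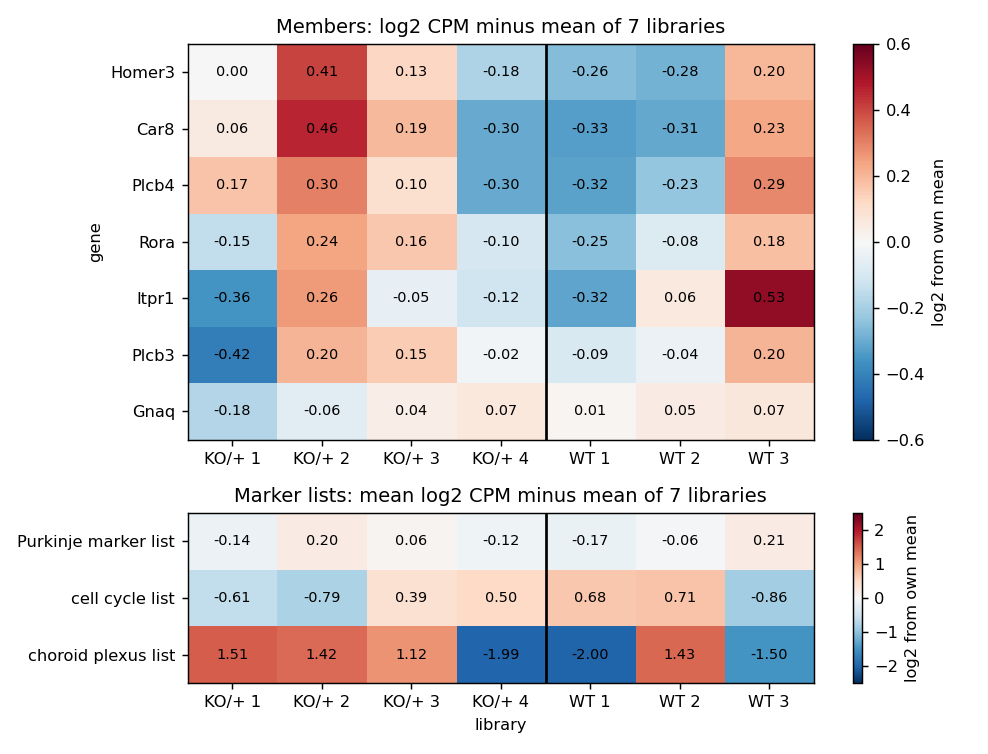
Log2 CPM of each of the 7 genes in each library after subtraction of its mean over the 7 libraries (upper map), and mean log2 CPM of 3 marker lists treated in the same way (lower map, wider colour scale), with KO/+ libraries left of the line and WT libraries right of it. Homer3, Car8 and Plcb4 are above their means in KO/+ 2 and WT 3 and below them in KO/+ 4, WT 1 and WT 2, and Gnaq stays within -0.18 to 0.07.

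Several marker lists of other cells moved with the profile of Homer3, Car8 and Plcb4. Oligodendrocyte lineage genes summed to 11519, 16068, 13472 and 7029 CPM in KO/+ 1 to 4 and 9819, 8896 and 17238 CPM in WT 1 to 3, with 0 of 6 genes at 0 in every library. Microglial genes summed to 130, 146, 121 and 87.8 CPM in KO/+ 1 to 4 and 115, 94.6 and 159 CPM in WT 1 to 3, with 0 of 5 genes at 0 in every library. Both sums had their 3 lowest values in KO/+ 4, WT 1 and WT 2, the libraries where Homer3, Car8 and Plcb4 were low. Cell cycle genes ran the other way. The summed level of 8 cell cycle genes was 212, 197, 458 and 508 CPM in KO/+ 1 to 4 and 558, 588 and 194 CPM in WT 1 to 3, with 0 of 8 genes at 0 in every library. It was high in KO/+ 4, WT 1 and WT 2, and also in KO/+ 3, where Homer3, Car8 and Plcb4 were above their means. When the fit held the mean log2 level of these genes as a covariate, log2 fold changes were 0.13 for Homer3, 0.15 for Car8 and 0.06 for Plcb4, and none was called. The summed level of 6 choroid plexus genes was 1430, 1031, 724 and 46.9 CPM in KO/+ 1 to 4 and 41.3, 1027 and 45.1 CPM in WT 1 to 3, also with 0 of 6 genes at 0 in every library. It did not follow the profile, being high in WT 2 and low in WT 3. The part of the oligodendrocyte, microglial and choroid plexus levels in the values of the 7 genes was not tested.

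Relative to the summed Purkinje markers of the same library, the 7 genes differed in how much spread remained. Calb1 (mean 805 CPM) and Pcp4 (499 CPM) were the largest of the 10 markers and weigh most in the sum. The markers did not share one profile: Calb1 was highest in KO/+ 2, at 1080 CPM, and Slc1a6 in WT 2, at 233 CPM. Calb1 is also among the genes nearest to Homer3, so a smaller spread against this sum is partly built in. Homer3 varied with an SD of 0.10 on the log2 scale over the 7 libraries, against 0.26 for its own log2 CPM. Plcb4 had 0.14 against 0.28, Car8 had 0.15 against 0.32, and Rora had 0.12 against 0.19. Itpr1 was reduced little, with 0.27 against 0.32, and Plcb3 not at all, with 0.22 for both. Gnaq went the other way, with 0.23 relative to the Purkinje markers against 0.09 for its log2 CPM. With the mean log2 level of the Purkinje markers as a covariate, log2 fold changes were 0.19 for Homer3 and 0.23 for Car8 (unadjusted p = 0.0517 and 0.0635, edgeR adjusted p = 0.775 for both), and -0.17 for Itpr1.

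The genes most like each member over the 7 libraries were named by the same measure among the 11995 genes averaging 5 CPM or more. For Homer3 they were Trim17, Akain1 and Calb1 (calbindin, the calcium buffer of Purkinje cells), at 0.03 to 0.04. Car8 was nearest to Creg1, Trim17 and Cep76, at 0.05 to 0.06, and Plcb4 to Fam126b at 0.02. Plcb3 was nearest to Shank1, a scaffold that binds Homer proteins, at 0.04, followed by Kdelc2 and by Grid2ip, which binds the delta glutamate receptor of Purkinje cell spines. Itpr1 was nearest to Bean1, Osbpl5 and Flt3, at 0.06 to 0.07. Gnaq was nearest to Kif2a, Atp11a and Grn, at 0.02 to 0.03, and Rora to Fgf11, Rap1gap2 and Ptpn4, at 0.03 to 0.05. These are descriptions over 7 libraries that differed in depth and in the marker levels of other cells. The part of those differences in the likeness was not tested.

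Of 10 other genes listed for the mGluR1 pathway, 0 were called, with 5 positive and 5 negative log2 fold changes and a median of 0.006. Rgs8, a regulator that shortens G protein signalling and is abundant in Purkinje cells, stood at 0.10 ± 0.18 (SE), and Shank2, a scaffold that binds Homer proteins, at 0.07 ± 0.14 (SE). Inpp5a, which removes a phosphate from IP3, and Itpka, which adds one, stood at 0.04 ± 0.15 and 0.15 ± 0.13 (SE).

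Grm5 encodes mGluR5, the other Gq-coupled receptor of this class. Of the 10 genes it was the single one with an unadjusted p under 0.05, beside 3.15% of all genes. It had 33.4, 32.8, 40.5 and 51.9 CPM in KO/+ 1 to 4 and 52.8, 50.3 and 62.8 CPM in WT 1 to 3. KO/+ 1, KO/+ 2 and KO/+ 3 lay below all WT libraries and KO/+ 4 lay within their range. The log2 fold change was -0.48 ± 0.17 (SE, unadjusted p = 0.0200, edgeR adjusted p = 0.957). Among 12 genes of calcium handling, 0 were called and 0 had an unadjusted p under 0.05 (0% and 3.15% of all genes). They had 3 positive and 9 negative log2 fold changes, with a median of -0.08. Their ends were Ryr1, a calcium release channel, at -0.23 ± 0.26 and the calcium buffer Pvalb at 0.32 ± 0.20 (SE), which was 0.17 without KO/+ 2.

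Paralogues of the 7 genes were measured as a contrast within each family, and 0 of 12 were called. Of the 12, 2 had no overlap between genotypes (3.96% of all genes) and an unadjusted p under 0.05 (3.15% of all genes). Itpr2, the type 2 IP3 receptor, had 23.6, 31.8, 34.2 and 42.4 CPM in KO/+ 1 to 4 and 47.1, 45.1 and 51.0 CPM in WT 1 to 3. All KO/+ values were below all WT values (1.8% of all genes), and the log2 fold change was -0.53 ± 0.17 (SE, unadjusted p = 0.0141, edgeR adjusted p = 0.957). Homer1, which gives long scaffold forms and a short form induced by activity, had 54.9, 52.7, 55.3 and 47.2 CPM in KO/+ 1 to 4 and 43.2, 46.9 and 45.9 CPM in WT 1 to 3. All KO/+ values were above all WT values (2.16% of all genes), and the log2 fold change was 0.21 ± 0.08 (SE, unadjusted p = 0.0280, edgeR adjusted p = 0.957).

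**Figure D4:**
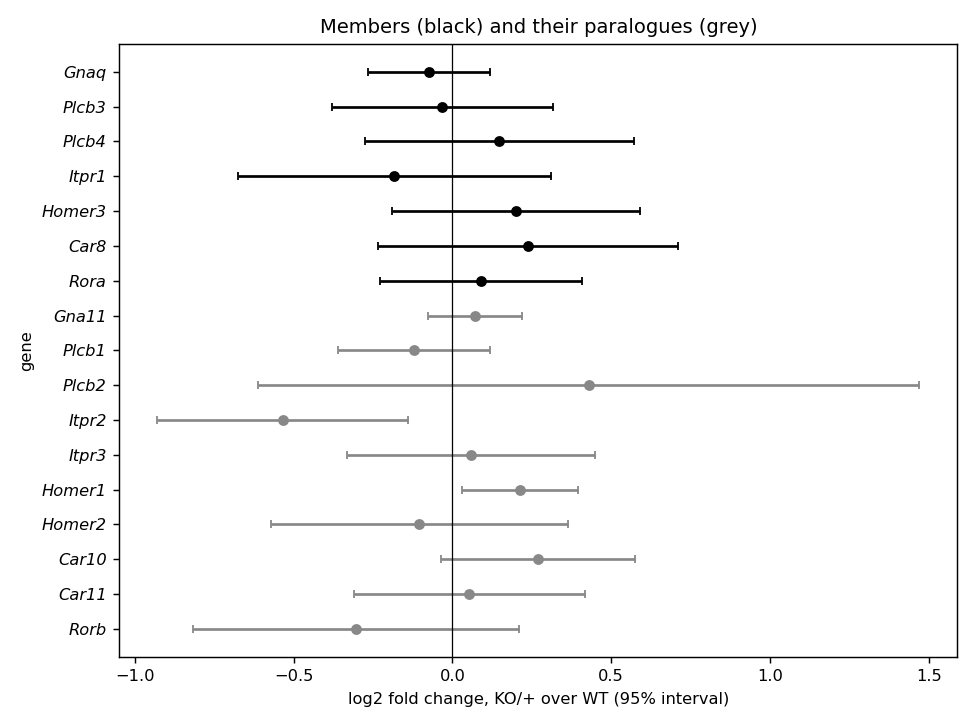
Log2 fold change of KO/+ over WT with 95% intervals (edgeR, horizontal axis) for the 7 genes (black) and for 10 of their paralogues (grey). Intervals of the 7 genes all cross 0, and those of Itpr2 (-0.93 to -0.14) and Homer1 (0.03 to 0.40) do not, before adjustment over 16813 genes.

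In TPM, members exceeded their paralogues by unequal margins. Itpr1 averaged 397 TPM, against 5.85 TPM for Itpr2 and 1.65 TPM for Itpr3. Homer3 averaged 246 TPM, against 27.4 TPM for Homer2 and 24.4 TPM for Homer1, and Car8 averaged 493 TPM, against 81.3 TPM for Car10 and 60.7 TPM for Car11. Plcb4 at 105 TPM and Plcb3 at 29.99 TPM exceeded Plcb1 at 21.0 TPM and Plcb2 at 0.40 TPM. By counts, which are not corrected for length, Plcb3 averaged 60.6 CPM and lay below Plcb1 at 94.2 CPM. The TPM of Plcb3 includes a shorter transcript model with a mean share of 28.3%. Whether the place of Plcb3 above Plcb1 in TPM rests on that model was not tested. Rora averaged 49.3 TPM, against 1.05 TPM for Rorb. Gnaq at 67.2 TPM was near its paralogue Gna11, which averaged 56.8 TPM in both KO/+ and WT and is known to share its coupling to phospholipase C. These are levels in whole cerebellum, where granule cells outnumber Purkinje cells.

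Promoter windows of RefSeq (GRCm38.p6, 250 bases before to 50 after a start) were held for 5 of the 7 genes, in 6 windows. The ROR half-site AGGTCA, searched on both strands, was found in the windows of Homer3 and Plcb3 and not in those of Gnaq, Plcb4 and Rora. The Plcb4 windows surround starts at chr2:135659547 and chr2:135764838. They do not cover the starts of Plcb4-202 (chr2:135741830) and Plcb4-201 (chr2:135805548). The Rora window lies at the start of Rora-201 only. The same letters occur in 16.3% of the 32851 windows of the table, so a match is a description of the window alone.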

How the data were processed

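Polyadenylated RNA of P15 cerebella was sequenced with a directional kit from 4 L3mbtl3 KO/+ and 3 WT pups, and bcl2fastq, Trimmomatic 0.39, STAR 2.5.2a and RSEM 1.3.1 are named, with the builds mm10 and GRCm38, per the submitters' processing notes. The strand setting of the counting is not given in the sources used here, so antisense and overlapping reads may be mixed. Per the file headers, the deposited expected counts are RSEM estimates of reads per gene or transcript. Per the file headers, TPM and FPKM are deposited as values scaled by length and library size, and the deposited isoform percentage gives each transcript's part of its gene. The 6 series-wide tables were not used, because gene names in them were out of step with the values.

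Expected counts were rounded, filtered (filterByExpr), scaled by TMM (0.978 to 1.02) and tested with edgeR 4.0.16 (glmQLFit and glmQLFTest, robust) without covariates, with Benjamini-Hochberg adjustment over all genes at 0.05. Log2 fold changes had a median SE of 0.142, at a common biological coefficient of variation of 18.7%. Transcripts were tested alike, without modelling the uncertainty of assigning reads to transcripts, and usage with diffSpliceDGE. A test of isoform shares with limma 3.58.1 was added after the data were seen. CPM, used for plots and likeness, was computed from the counts, with a prior count of 2 on the log2 scale. The Plcb3 to Plcb4 ratio was compared by exact permutation over 35 splits. Gene and transcript models came from GENCODE M21 (GRCm38), where all 55450 gene IDs were found.

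Members and lists (paralogues, mGluR1 pathway, calcium handling, Purkinje cells, zebrin classes, Rora-dependent genes and 8 lists of other cells) were chosen with earlier results of these data known. Named genes were the members, their paralogues, up to 4 genes of each pathway list with the smallest unadjusted p, and the 3 nearest genes of each member. Other genes of those lists, such as Rgs8, Shank2, Inpp5a and Ryr1, were named for their roles or as the end of a range, after their values were seen, as were L3mbtl3 and Sst. Every pair of libraries differed by more than sampling noise, and n is 4 and 3. Counts carry no molecular identifiers. Some genes of these families and pathways are not reported here. The scripts were tested on simulated data. Alternatives were other scalings, DESeq2 1.42.0, limma on log2 TPM, no filter, covariates, the replicate number and each library left out.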

Additional observations from a re-analysis of the deposited data

How the results depend on the processing

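Of 912 log2 fold changes of 57 named genes under 16 alternatives, 856 kept their direction and side of the threshold, 56 changed direction and 0 passed the threshold. Member genes called stayed at 0 under every alternative run. Genes called, 0 in the main fit, were 1 with the replicate block (Eif3j2, edgeR adjusted p = 0.0437, named after its value was seen) and 0 to 1 when libraries were left out in turn: Wdfy1 without WT 2, Fam220a without WT 3 and Eif3j2 without KO/+ 4. Transcripts called were 0, and 0 to 2 with libraries left out (2 without WT 3, 1 without KO/+ 4). Genes with a usage call, 27, were 28 with RLE scaling, 0 with at least 10 counts in every library, 43 with the replicate block, 7 with the added share test and 22 to 63 with libraries left out; no member was among them. The Plcb3 to Plcb4 log2 ratio differed by -0.20 in CPM or FPKM, by -0.32 with the replicate block and by -0.32 to -0.05 with libraries left out (lowest without KO/+ 4, highest without KO/+ 1).

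Deviations of KO/+ and WT libraries of the same replicate number correlated at 0.09, -0.17 and -0.02 over genes. These values lay within the range of the other pairs (-0.44 to 0.44) and gave no sign of pairing by number. The labels name no litters, so the correlations cannot show whether libraries of the same number shared one. With the replicate block the log2 fold changes were 0.29 for Homer3, 0.37 for Car8 and 0.28 for Plcb4. Directions changed with the replicate block for Gna14 (-0.28), Itpr3 (-0.047) and Shh (0.13); with limma-trend on log2(TPM + 1) for Gna11 (-0.0015), Car11 (-0.018) and Ptpn4 (-0.011), and on log2(TPM + 0.1) likewise (-0.0015, -0.018 and -0.011); and with the cell cycle covariate for Homer2 (0.034), Car11 (-0.031), Aldoc (-0.031) and Rap1gap2 (-0.0053). The cause was not tested.

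With 1 library left out, directions changed within these ranges of log2 fold change: Itpr1 -0.37 to 0.065, Plcb3 -0.11 to 0.085, Rora -0.012 to 0.21, Aldoc -0.052 to 0.29, Bean1 -0.41 to 0.025, Car11 -0.064 to 0.20, Cep76 -0.0024 to 0.36, Dagla -0.38 to 0.027, Fgf11 -0.019 to 0.19, Flt3 -0.35 to 0.085, Gabbr2 -0.19 to 0.10, Gna14 -0.29 to 0.27, Gna15 -0.23 to 0.064, Grid2ip -0.13 to 0.10, Grn -0.069 to 0.016, Homer2 -0.29 to 0.0066, Itpr3 -0.076 to 0.14, Kdelc2 -0.083 to 0.069, Osbpl5 -0.31 to 0.13, Pcp2 -0.0061 to 0.19, Plcb1 -0.20 to 0.0086, Ptpn4 -0.040 to 0.19, Rap1gap2 -0.065 to 0.21, Rorb -0.46 to 0.037, Shank1 -0.10 to 0.088, Shh -0.19 to 0.30 and Stim1 -0.25 to 0.068. With 4 and 3 libraries, precision is limited: the unadjusted 95% interval of the fold was 0.63 to 1.24 for Itpr1 and 0.85 to 1.64 for Car8.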

Other observations

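Other cell types of the cerebellum gave no calls by edgeR in any of 8 marker lists, and no listed gene was at 0 in every library. Among 6 genes of mature granule neurons, 5 had positive log2 fold changes, with a median of 0.30, and Fat2, an adhesion protein of granule cells, stood at -0.33 ± 0.25 (SE). Granule neuron genes summed to 2876 to 4398 CPM in KO/+ and 3006 to 3474 CPM in WT. All 8 cell cycle genes were negative, with a median of -0.35 and sums of 197 to 508 CPM in KO/+ and 194 to 588 CPM in WT.

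Of 6 Bergmann glia and astrocyte genes, 5 were positive, with a median of 0.16. In 1 of the 6, Hopx, every KO/+ library was above every WT library (2.16% of all genes), at 0.17 ± 0.08 (SE, edgeR unadjusted p = 0.0552). Oligodendrocyte lineage genes were 3 positive and 3 negative, with a median of 0.005, microglial genes 2 positive and 3 negative, with a median of -0.01, and vascular genes 3 positive and 2 negative, with a median of 0.008. All 6 choroid plexus genes were positive, with a median of 0.78 and sums of 46.9 to 1430 CPM in KO/+ and 41.3 to 1027 CPM in WT. All 6 interneuron genes were negative, with a median of -0.15, and Sst, at -2.41 ± 0.84 (SE, unadjusted p = 0.0205), was high in WT 3 alone. Of the 10 Purkinje markers 5 were positive, with a median of 0.05 and ends at -0.73 for Foxp2 and 0.33 for Gng13. Foxp2 had 21.9 CPM in WT 3, against 8.53 and 9.40 CPM in WT 1 and WT 2, and its log2 fold change was -0.16 without WT 3. Gng13 stood at 0.54 without WT 3 and at 0.17 without KO/+ 2.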
